A study of Mus musculus with 13 samples.

Results

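The immunoglobulin heavy chain locus (Igh) of the mouse lies on chromosome 12, and its chromatin accessibility was followed here in haematopoietic stem cells (HSCs) whose recipients had restored different sets of blood lineages. Members were chosen by position: every accessible region of the deposited table with its midpoint from 114400000 to 117300000 on chromosome 12 of the mm9 genome. This gave 160 of the 115295 regions of the series. The locus was singled out after its counts in the groups compared here had been seen, so its differences between groups are a description of these libraries and carry no p-value.

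Open chromatin was tagged with a transposase (Omni-ATAC-seq, in bulk) in C57BL/6 HSCs that descended from 1 transplanted Vwf+ HSC per recipient, and recipients were grouped by the blood lineages restored over 16 weeks. PLT-HSC (3 libraries) came from P-restricted recipients, PEM-HSC (6 libraries) from PEM-restricted recipients and MUL-HSC (4 libraries) from multilineage recipients. Cells of every group were sorted from bone marrow as LSK, Flt3-, CD150+, CD48-, CD45.2+ and Gata1-, with 500 cells per replicate, and CD45.2 marks the donor cells. Each recipient's HSCs are thus the progeny of 1 cell, and the labels do not say how many recipients gave the libraries of a group or whether any libraries share a recipient. The sorted phenotype was not checked against marker genes, since the regions carry no gene names.

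Igh encodes the heavy chains of antibodies. In developing B cells the RAG recombinase joins a diversity (D) segment to a joining (J) segment and then a variable (V) segment to the DJ unit. The DNA between joined segments is as a rule removed. Enhancers lie near the J segments and beyond the last constant gene, and V segments far from the D and J segments are brought close by looping of the locus during B cell development. HSCs have not started this recombination in the textbook account. In the gene order of the RefSeq annotation of GRCm38.p6, used for names alone, 8 constant genes, 4 J segments, 20 D segments and 184 V segments, each count with its pseudogenes, lie between Tmem121 and Zfp386, and the only protein-coding genes listed among them are Adam6b and Adam6a. No gene was assigned to a region, because that annotation has another build than the counts.

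Accessibility is given as CPM, the count in proportion to the library's counts in tested regions after scaling by the TMM factors of edgeR. Library totals ranged from 2378024 to 3307889 counts in PLT-HSC, from 1276962 to 3851165 in PEM-HSC and from 1307222 to 2831520 in MUL-HSC. In bulk libraries a smaller share of cells with an open region and less opening per cell cannot be told apart. V segments resemble one another in sequence, and how the submitters treated reads that match several places was not given in the sources used here, so counts of single regions in the variable part are uncertain to that extent. The filter on low counts left 58 of the 160 regions for the fit. A region that is high in MUL-HSC alone can pass that filter through MUL-HSC, so sums over all 160 regions are given first and counts of regions past the threshold after them.

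The whole locus was less accessible in both restricted groups than in MUL-HSC. Summed over the 160 regions, accessibility was 507, 616 and 591 CPM in the PLT-HSC libraries. In PEM-HSC it had a lowest value of 609, a median of 677 and a highest value of 846 CPM. The MUL-HSC libraries had 1213, 1244, 906 and 992 CPM. Neither restricted group overlapped MUL-HSC, while PLT-HSC and PEM-HSC overlapped each other. The means were 571 ± 57.0 CPM in PLT-HSC (SD, n = 3), 707 ± 88.7 CPM in PEM-HSC (SD, n = 6) and 1089 ± 165 CPM in MUL-HSC (SD, n = 4), which gives a log2 ratio to MUL-HSC of -0.93 in PLT-HSC and -0.62 in PEM-HSC. The log2 ratio of PLT-HSC to PEM-HSC was -0.31.

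Accessibility outside the window did not show these differences in size. Over the 333 regions in the 2.9 Mb below it, PLT-HSC averaged 4602 ± 26.3 CPM, PEM-HSC 4550.5 ± 167 CPM and MUL-HSC 4429 ± 118 CPM. Over the 139 regions in the 2.9 Mb above it, PLT-HSC averaged 936 ± 67.5 CPM, PEM-HSC 914 ± 36.9 CPM and MUL-HSC 942 ± 34.3 CPM. In the lower flank the PLT-HSC libraries lay above all MUL-HSC libraries, but at 104% of the MUL-HSC mean, a log2 ratio of 0.06, and in the upper flank all groups overlapped. Dividing the locus by the counts of both flanks in the same library, in place of TMM scaling, gave log2 ratios for the whole locus of -0.98 for PLT-HSC and -0.65 for PEM-HSC against MUL-HSC.

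The difference was not spread evenly along the locus. For description the window was cut into its first 400 kb, the constant-gene end, and 3 equal stretches of the remainder called proximal, middle and distal, which start at 114.8, 115.63 and 116.47 Mb. These bounds follow distance alone and not annotated segments. The 22 regions of the constant-gene end summed to 184, 180 and 225 CPM in PLT-HSC, to 179 to 231 CPM in PEM-HSC with a median of 201, and to 232, 303, 184 and 244 CPM in MUL-HSC, so the groups overlapped. Its log2 ratio against MUL-HSC was -0.30 for PLT-HSC and -0.24 for PEM-HSC. Leaving out single libraries gave -0.41 to -0.17 for PLT-HSC and -0.35 to -0.11 for PEM-HSC. The differences were smallest without MUL-HSC replicate 2.

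The proximal stretch held 20 regions and few counts. It summed to 69.3, 52.3 and 50.8 CPM in PLT-HSC, to 52.8 to 78.2 CPM in PEM-HSC with a median of 67.9, and to 77.7, 78.6, 75.7 and 75.5 CPM in MUL-HSC. PLT-HSC lay below MUL-HSC without overlap, at a log2 ratio of -0.42, whereas PEM-HSC overlapped MUL-HSC at -0.18. One broad region near its upper end, from 115616687 to 115617862, took a large part of these sums and differed little between groups, with 29.4 ± 5.76 CPM in PLT-HSC, 32.5 ± 5.47 CPM in PEM-HSC and 33.9 ± 3.42 CPM in MUL-HSC.

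The middle stretch, with 44 regions, summed to 98.6, 137 and 119 CPM in PLT-HSC. In PEM-HSC it ran from 112 to 198 CPM with a median of 145, and the MUL-HSC libraries had 305, 287, 247 and 231 CPM. Both restricted groups lay below all MUL-HSC libraries, at log2 ratios of -1.18 for PLT-HSC and -0.79 for PEM-HSC. In the distal stretch, with 74 regions, the sums were 156, 246 and 197 CPM in PLT-HSC, 217 to 361 CPM in PEM-HSC with a median of 275, and 597, 575, 400 and 442 CPM in MUL-HSC. Again neither restricted group overlapped MUL-HSC, and the log2 ratios were -1.34 for PLT-HSC and -0.85 for PEM-HSC. PLT-HSC kept 39.6% of the MUL-HSC mean in the distal stretch and PEM-HSC 55.6%, against 81.5% and 84.5% at the constant-gene end.

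**Figure D1:**
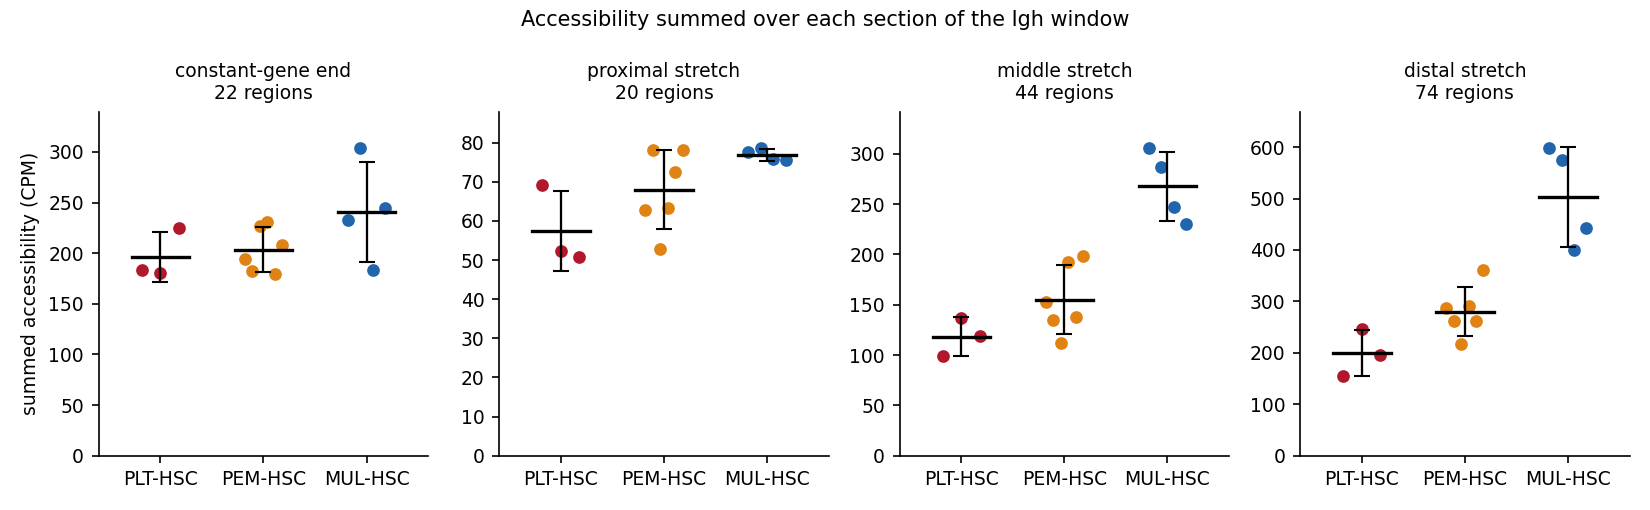
Accessibility summed over all regions of each section (vertical axis, CPM, from 0) in PLT-HSC, PEM-HSC and MUL-HSC, with a point per library, a bar at the mean and whiskers of 1 SD (n = 3, 6 and 4). At the constant-gene end the groups overlap, and in the middle and distal stretches all PLT-HSC and PEM-HSC points lie below the 4 MUL-HSC points.

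Within the distal stretch the libraries of a group were spread out too. The lowest of the 13 libraries was PLT-HSC replicate 1, followed by PLT-HSC replicate 3 and PEM-HSC replicate 3. PEM-HSC replicate 6 had the highest value of the restricted groups, 361 CPM, beside 400 CPM in MUL-HSC replicate 3, the lowest MUL-HSC library. The next PEM-HSC library in order, replicate 4, had 290.3 CPM. MUL-HSC replicates 1 and 2 had the highest distal sums and totals of 1728184 and 1307222 counts. PEM-HSC replicates 2, 3 and 6, with totals under 2000000 counts, had distal sums of 262, 217 and 361 CPM. The part of depth in these sums was not tested. Without these 5 libraries the distal log2 ratios were -1.08 for PLT-HSC and -0.59 for PEM-HSC against MUL-HSC. Thinning the counts to the smallest total gave -1.32 and -0.87 with all 13 libraries. The ratio of distal to constant-gene end sums within each library, which needs no scaling between libraries, was 0.848, 1.36 and 0.874 in PLT-HSC, 0.959 to 1.74 in PEM-HSC and 2.57, 1.89, 2.18 and 1.81 in MUL-HSC, so MUL-HSC lay above both restricted groups by this measure too.

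In bins of 500 kb the smallest share of the MUL-HSC level was left from 115.9 to 116.4 Mb, where 16 regions summed to 24.7, 38.8 and 36.6 CPM in PLT-HSC, to 30.9 to 66.3 CPM in PEM-HSC with a median of 41.1, and to 131, 130, 87.3 and 78.5 CPM in MUL-HSC. That was 31.3% of the MUL-HSC mean in PLT-HSC and 42.5% in PEM-HSC. From 116.4 to 116.9 Mb PLT-HSC kept 39.4% and PEM-HSC 54.7% of it, and from 116.9 Mb to the end of the window PLT-HSC kept 43.9% and PEM-HSC 60.9%. Toward the constant genes the shares were larger. PLT-HSC had 59.3% and PEM-HSC 72.6% from 115.4 to 115.9 Mb, PLT-HSC 60.7% and PEM-HSC 78.2% from 114.9 to 115.4 Mb, and PLT-HSC 81.5% and PEM-HSC 84.9% in the first bin. MUL-HSC did not overlap PLT-HSC in any bin but the first, and did not overlap PEM-HSC in the 4 bins from 115.4 Mb upward. Beyond both ends of the window, the 9 flanking bins with at least 10 regions ranged from 85.5% to 117% of the MUL-HSC mean in PLT-HSC and from 81.1% to 110% in PEM-HSC.

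**Figure D2:**
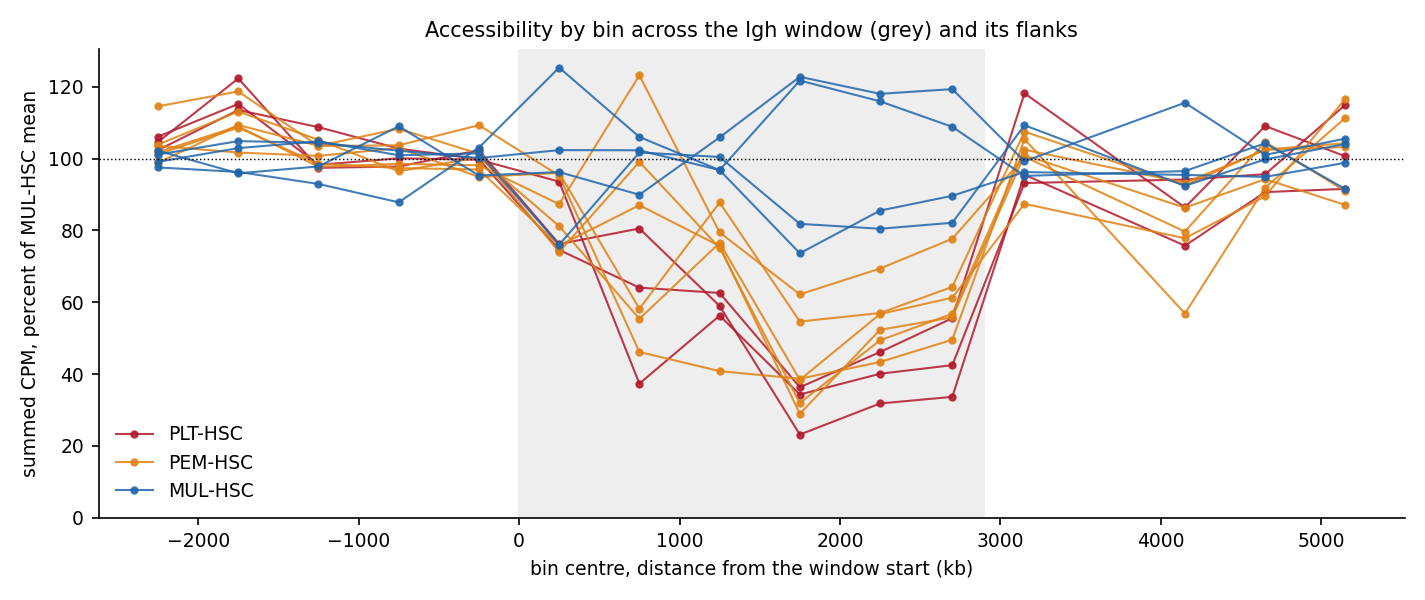
Summed accessibility in bins of 500 kb (vertical axis, percent of the MUL-HSC mean of that bin, from 0) by distance of the bin's centre from the start of the window (horizontal axis, kb), a line per library, with the window shaded and flanking bins under 10 regions left out. Inside the window the PLT-HSC and PEM-HSC lines drop to 23.2% to 62.2% in the bin at 1750 kb, and they return to 87.4% or more in the first bin above the window.

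In the fit across all regions (edgeR quasi-likelihood test, Benjamini-Hochberg adjustment over 59408 regions, threshold 0.05), 22 of the 58 tested regions of the locus fell in PLT-HSC against MUL-HSC and 0 rose. Of all tested regions of the series, 2.41% changed in that comparison, with 1.28% lower and 1.13% higher; since the locus was chosen with this comparison known, nothing is read from the contrast. In PEM-HSC against MUL-HSC, 11 of the 58 fell and 0 rose, beside 0.832% of all tested regions that changed, with 0.589% lower and 0.242% higher. All 11 were among the 22, but both comparisons use the same MUL-HSC libraries, so their calls are not independent. The median log2 fold change of the 58 was -1.02 for PLT-HSC and -0.67 for PEM-HSC, beside 0.01 in both comparisons over all tested regions. By section, 1 of 14, 0 of 2, 6 of 15 and 15 of 27 tested regions fell in PLT-HSC from the constant-gene end to the distal stretch, and 1, 0, 4 and 6 fell in PEM-HSC.

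In 32 of the 58 regions every PLT-HSC library lay below every MUL-HSC library and in 0 above, beside 6.56% of all tested regions below and 6.67% above. PEM-HSC lay below MUL-HSC without overlap in 13 of 58 and above in 0, beside 2.08% of all tested regions below and 1.51% above. The locus was chosen with both comparisons known, and a region high in MUL-HSC alone can pass the filter. Nothing is therefore read from these shares or from the PEM-HSC calls either. The count of regions past the threshold in PLT-HSC dropped to 13 when MUL-HSC replicate 1 was left out, to 14 without MUL-HSC replicate 4 and to 11 without PLT-HSC replicate 1. In PEM-HSC it dropped to 5 without MUL-HSC replicate 1 and to 7 without MUL-HSC replicate 2. Leaving out the 5 libraries under 2000000 counts, which keeps MUL-HSC replicates 3 and 4, gave 11 in PLT-HSC and 0 in PEM-HSC.

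**Figure D3:**
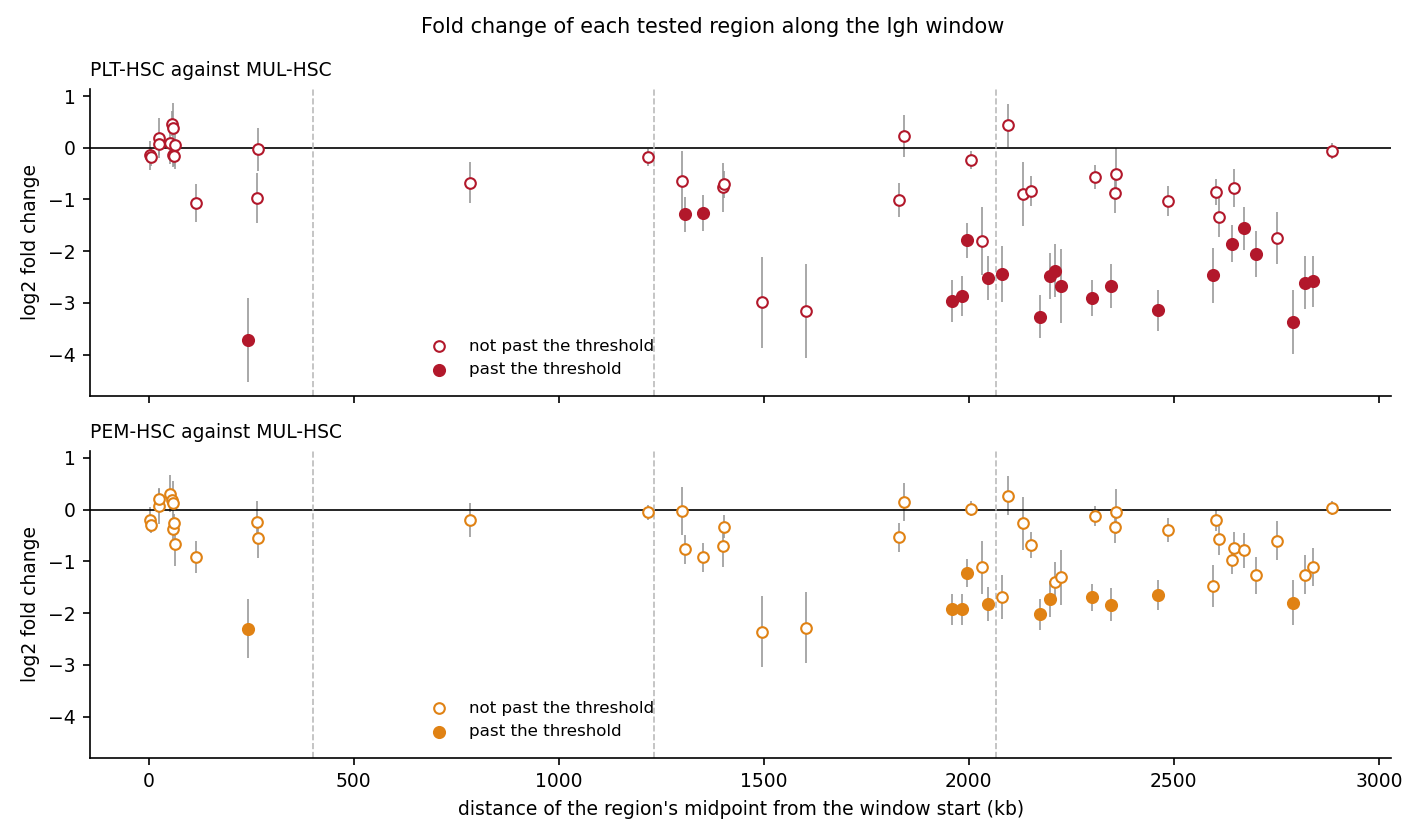
Log2 fold change of each of the 58 tested regions (vertical axis, whiskers of 1 SE) by distance of its midpoint from the start of the window (horizontal axis, kb), PLT-HSC against MUL-HSC above and PEM-HSC against MUL-HSC below. Filled points are past the threshold (22 above, 11 below), and dashed lines part the constant-gene end and the proximal, middle and distal stretches. Open points near 0 stand between filled points near -3 in the upper panel.

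The regions of smallest p lay in the middle and distal stretches, and the same ones led in both comparisons with MUL-HSC for 4 of 5. The region from 116573099 to 116573523 had 0.325, 2.80 and 2.97 CPM in PLT-HSC, 2.58 to 8.14 CPM in PEM-HSC with a median of 4.54, and 21.8, 25.6, 14.5 and 16.8 CPM in MUL-HSC. All MUL-HSC libraries lay above all libraries of the restricted groups, and PLT-HSC replicate 1 was the lowest. Its log2 fold change against MUL-HSC was -3.26 ± 0.42 (SE) in PLT-HSC and -2.02 ± 0.30 in PEM-HSC.

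The region from 116699023 to 116699739 had 1.63, 2.80 and 3.96 CPM in PLT-HSC, 3.43 to 9.39 CPM in PEM-HSC with a median of 6.98, and 27.0, 24.0, 15.0 and 20.2 CPM in MUL-HSC. Here too the MUL-HSC libraries were above all others, and the log2 fold changes were -2.90 ± 0.36 (SE) in PLT-HSC and -1.69 ± 0.26 in PEM-HSC. In the middle stretch, the region from 116357715 to 116358288 had 0.651, 3.27 and 3.63 CPM in PLT-HSC, 2.58 to 9.39 CPM in PEM-HSC with a median of 4.12, and 27.6, 21.5, 14.0 and 15.6 CPM in MUL-HSC. The log2 fold changes were -2.95 ± 0.41 (SE) in PLT-HSC and -1.92 ± 0.30 in PEM-HSC, with no overlap with MUL-HSC.

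The region from 116383510 to 116384038 was lower to a like degree, with 1.30, 2.80 and 3.63 CPM in PLT-HSC, 2.58 to 8.76 CPM in PEM-HSC with a median of 4.25, and 19.9, 24.8, 19.1 and 14.1 CPM in MUL-HSC. Its log2 fold changes were -2.87 ± 0.39 (SE) in PLT-HSC and -1.93 ± 0.29 in PEM-HSC. The region from 116860887 to 116861685, among the 5 of smallest p for PLT-HSC, had 0.651, 5.14 and 2.97 CPM in PLT-HSC, 5.73 to 12.5 CPM in PEM-HSC with a median of 7.23, and 33.4, 31.4, 14.5 and 21.0 CPM in MUL-HSC. In this region PLT-HSC also lay below PEM-HSC without overlap. The fifth for PEM-HSC, from 116446155 to 116446755, had 0.976, 2.80 and 3.30 CPM in PLT-HSC, 1.72 to 6.26 CPM in PEM-HSC with a median of 3.98, and 19.9, 14.9, 12.04 and 8.77 CPM in MUL-HSC, and its PEM-HSC call was lost without MUL-HSC replicate 1. All 6 of these PEM-HSC calls were lost without the libraries under 2000000 counts, with log2 fold changes of -1.80 to -1.28.

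Across the 22 regions that fell in PLT-HSC, log2 fold changes against MUL-HSC ran from -3.71 to -1.27 with a median of -2.55. The mean of PEM-HSC lay between those of PLT-HSC and MUL-HSC in all 22. These regions were picked as low in PLT-HSC and high in MUL-HSC, which favours such an order, so nothing is read from it. PLT-HSC replicate 1 had the lowest value of the 13 libraries in 14 of them and PEM-HSC replicate 2 in 5, ties included. MUL-HSC libraries had the lowest value in 0, which the choice of regions lower in PLT-HSC than in MUL-HSC nearly fixes in advance. At the constant-gene end 1 region fell, from 114641012 to 114641470, which is named after its values were seen. It held 2, 0 and 2 counts in PLT-HSC, 0 to 6 in PEM-HSC and 10, 12, 6 and 23 in MUL-HSC, so its log2 fold changes of -3.71 ± 0.81 (SE) in PLT-HSC and -2.30 ± 0.58 in PEM-HSC rest on few counts.

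Other regions of the middle and distal stretches differed less. In each stretch 1 tested region had a log2 fold change above 0 in PLT-HSC against MUL-HSC, and both are named after their values were seen. The middle one, from 116241312 to 116242148, had 4.23, 4.67 and 4.29 CPM in PLT-HSC, 3.72 to 5.16 CPM in PEM-HSC with a median of 3.88, and 4.49, 5.79, 2.01 and 3.43 CPM in MUL-HSC. The distal one, from 116495786 to 116496549, had 8.14, 2.34 and 5.28 CPM in PLT-HSC, 2.87 to 6.30 CPM in PEM-HSC with a median of 5.12, and 4.49, 3.31, 2.51 and 5.34 CPM in MUL-HSC. The groups overlapped in both, at log2 fold changes of 0.23 ± 0.41 and 0.43 ± 0.41 (SE), neither past the threshold.

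The next pairs of nearby regions were formed with the calls known, so the contrast within each pair is a description. The region from 116403614 to 116404548 begins 19.6 kb above the end of the one from 116383510 to 116384038. The regions starting at 116396404 and 116397728 lie between them. The region from 116403614 to 116404548 had 20.2, 26.6 and 23.1 CPM in PLT-HSC, 21.8 to 32.0 CPM in PEM-HSC with a median of 27.9, and 23.1, 30.6, 31.1 and 25.2 CPM in MUL-HSC. The groups overlapped, at log2 fold changes of -0.24 ± 0.17 (SE) for PLT-HSC and 0.02 ± 0.15 for PEM-HSC, neither past the threshold. The region from 116706171 to 116707147 begins 6.43 kb above the end of the one from 116699023 to 116699739. It had 11.1, 14.0 and 11.2 CPM in PLT-HSC, 10.9 to 20.6 CPM in PEM-HSC with a median of 16.8, and 21.8, 18.2, 15.0 and 16.4 CPM in MUL-HSC. PLT-HSC lay below MUL-HSC without overlap at a log2 fold change of -0.56 ± 0.23 (SE), and PEM-HSC overlapped MUL-HSC at -0.12 ± 0.19, again not past the threshold.

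**Figure D4:**
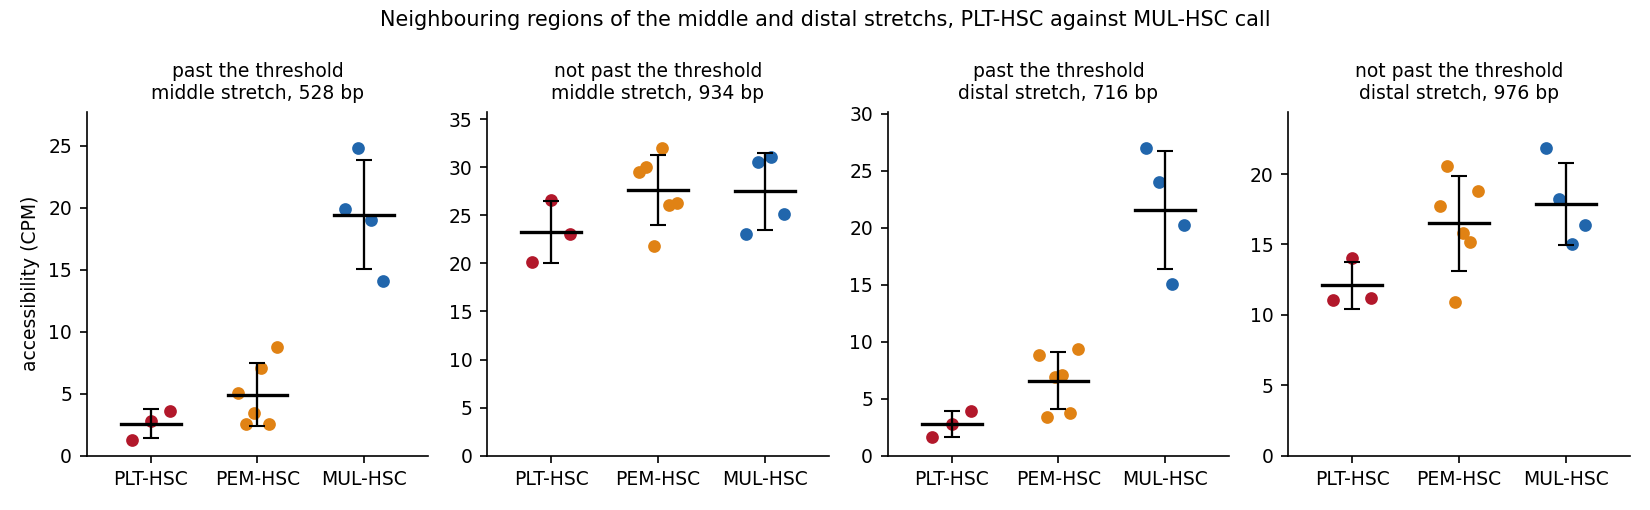
Accessibility (vertical axis, CPM, from 0) of pairs of nearby regions of the middle (left pair) and distal (right pair) stretches in PLT-HSC, PEM-HSC and MUL-HSC, with a point per library, a bar at the mean and whiskers of 1 SD (n = 3, 6 and 4). The regions of 528 and 716 bp have 2.58 and 2.80 CPM on average in PLT-HSC and 19.5 and 21.5 CPM in MUL-HSC. The wider regions of 934 and 976 bp have 23.3 and 12.1 CPM in PLT-HSC and 27.5 and 17.9 CPM in MUL-HSC. The narrower ones were picked as past the threshold and the wider ones as not past it, so that choice set the contrast.

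In the middle and distal stretches the difference was smallest in the widest class of regions. Some of the widest regions were also among those of highest mean CPM, so width and strength cannot be told apart here. Width classes were set after the values had been seen and are a description. The 12 regions of 750 bp and wider summed to 136 ± 19.6 CPM in PLT-HSC, 167 ± 18.1 CPM in PEM-HSC and 215 ± 14.7 CPM in MUL-HSC, and 3 of them fell in PLT-HSC. The 16 regions of 500 to under 750 bp summed to 69.1 ± 20.1 CPM in PLT-HSC, 108 ± 33.0 CPM in PEM-HSC and 255 ± 54.9 CPM in MUL-HSC, and 11 of the 14 tested fell in PLT-HSC. PLT-HSC thus had 63.2% of the MUL-HSC mean in the widest class and 27.1% in the class below it, and PEM-HSC had 77.9% and 42.4%. Much of the widest class came from the regions starting at 117285578 and 116403614, which differed little between groups. They had 43.5 and 23.3 CPM on average in PLT-HSC, 45.1 and 27.6 CPM in PEM-HSC and 45.5 and 27.5 CPM in MUL-HSC. The share of the widest class thus leans on them. The 90 narrower regions summed to 113 ± 25.3 CPM in PLT-HSC, 160 ± 38.1 CPM in PEM-HSC and 302 ± 69.6 CPM in MUL-HSC, which is 37.4% of the MUL-HSC mean in PLT-HSC and 53.0% in PEM-HSC. Of these 90, 74 were too low to be tested and 7 of the 16 tested fell in PLT-HSC, so the difference did not shrink steadily with width.

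Among the strongest regions of the middle and distal stretches, those of highest mean CPM over all libraries, the region from 117040655 to 117041388 had 4.88, 13.5 and 6.93 CPM in PLT-HSC, 6.87 to 26.9 CPM in PEM-HSC with a median of 13.5, and 35.3, 38.0, 25.6 and 21.4 CPM in MUL-HSC. It fell in PLT-HSC at a log2 fold change of -1.85 ± 0.36 (SE), a call lost without PLT-HSC replicate 1, and had -0.97 ± 0.28 in PEM-HSC, which passed the threshold without PEM-HSC replicate 6. The region from 115706962 to 115707756 fell in PLT-HSC with 7.16, 12.6 and 7.26 CPM, beside 25.0, 20.7, 20.1 and 20.6 CPM in MUL-HSC, at a log2 fold change of -1.29 ± 0.34 (SE). That call was close to the threshold: leaving out PLT-HSC replicate 1 or 3, PEM-HSC replicate 1, 2 or 6 or any MUL-HSC library ended it. In PEM-HSC it ran from 2.87 to 20.1 CPM, and it passed the threshold there without PEM-HSC replicate 4. The region from 115802477 to 115803158 had 11.6 ± 2.19 CPM in PLT-HSC, 14.8 ± 4.92 CPM in PEM-HSC and 18.8 ± 0.826 CPM in MUL-HSC and passed in neither comparison.

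The strongest regions of the constant-gene end did not pass the threshold in any comparison. The region from 114405998 to 114406908 had 27.0, 38.3 and 41.9 CPM in PLT-HSC, 22.3 to 42.4 CPM in PEM-HSC and 41.7, 44.6, 34.1 and 41.6 CPM in MUL-HSC, and that from 114460239 to 114460855 had 25.1, 19.6 and 25.7 CPM in PLT-HSC, 18.05 to 31.8 CPM in PEM-HSC and 30.2, 24.8, 23.1 and 28.2 CPM in MUL-HSC. In both the groups overlapped, with log2 fold changes of -0.18 ± 0.17 and -0.17 ± 0.19 (SE) for PLT-HSC against MUL-HSC. The broadest region of the locus, 1189 bp from 114662454 to 114663643, was spread widely within groups, with 23.8, 15.4 and 33.3 CPM in PLT-HSC, 22.3 to 59.5 CPM in PEM-HSC and 33.4, 102, 29.1 and 41.2 CPM in MUL-HSC. Its log2 fold changes against MUL-HSC were larger in PLT-HSC, at -0.97 ± 0.49 (SE), than in PEM-HSC, at -0.24 ± 0.40, and the groups overlapped. The proximal region from 115181968 to 115182612 had 6.54 ± 3.63 CPM in PLT-HSC, 9.03 ± 4.11 CPM in PEM-HSC and 10.1 ± 2.15 CPM in MUL-HSC.

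Near the ends of the window the groups overlapped. At the upper end the strongest region of the distal stretch, from 117285578 to 117286440, had 37.1, 41.1 and 52.4 CPM in PLT-HSC, 36.1 to 54.0 CPM in PEM-HSC with a median of 45.2, and 55.2, 38.9, 48.2 and 39.7 CPM in MUL-HSC. Its log2 fold changes were -0.06 ± 0.15 (SE) for PLT-HSC and 0.03 ± 0.13 for PEM-HSC. The last regions inside were too low to be tested. The one starting at 117288042 had 3.20 ± 1.29 CPM in PLT-HSC, 2.52 ± 1.03 CPM in PEM-HSC and 2.10 ± 0.768 CPM in MUL-HSC. The one starting at 117294616 had lower means in the restricted groups, with 0.576 ± 0.733 CPM in PLT-HSC, 0.571 ± 0.724 CPM in PEM-HSC and 2.17 ± 0.743 CPM in MUL-HSC, from 4, 8 and 16 counts. The first regions outside, starting at 117309474 and 117315512, had 4.03 ± 1.02 and 37.1 ± 5.55 CPM in PLT-HSC, 5.06 ± 0.979 and 36.8 ± 4.67 CPM in PEM-HSC and 5.64 ± 2.57 and 35.7 ± 3.75 CPM in MUL-HSC.

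At the lower end, the first region inside, from 114401623 to 114402148, had 9.23 ± 0.284 CPM in PLT-HSC, 9.03 ± 2.13 CPM in PEM-HSC and 10.3 ± 1.56 CPM in MUL-HSC. The last regions outside, starting at 114384304 and 114390137, had 22.0 ± 1.61 and 10.1 ± 2.70 CPM in PLT-HSC, 23.3 ± 4.85 and 12.95 ± 2.63 CPM in PEM-HSC and 18.4 ± 5.82 and 15.8 ± 3.77 CPM in MUL-HSC. None of these tested regions at the ends passed the threshold in any of the 3 comparisons.

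PLT-HSC and PEM-HSC, which share no libraries, did not differ in any single region of the locus past the threshold. Of the 58 tested regions 0 passed by the edgeR quasi-likelihood test and 0 by DESeq2, and 14 had an unadjusted p under 0.05, beside 4.61% of all tested regions; 0.00168% of all tested regions passed with adjustment. PLT-HSC was lower in 47 of the 58, with a median log2 fold change of -0.59 beside 0.00 over all tested regions, and in the distal stretch it was lower in 26 of 27. Summed over the distal stretch, PLT-HSC had 71.1% of the PEM-HSC mean, and the libraries overlapped, with PLT-HSC replicate 2 at 246 CPM above PEM-HSC replicate 3 at 217 CPM. PLT-HSC lay below PEM-HSC without overlap in 2 of the 58 regions and above in 0, beside 0.968% of all tested regions below and 1.32% above. These shares too are a description, since the locus was chosen with this comparison known. The groups were closest at the constant-gene end, at 96.4% of the PEM-HSC mean.

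The regions of highest mean CPM that were not tested had few counts. Those starting at 117085965 and 117126140 in the distal stretch held 7 and 6 counts in PLT-HSC, 24 and 29 in PEM-HSC and 40 and 41 in MUL-HSC. Those starting at 114443680, 114725831 and 114863349, at the constant-gene end and in the proximal stretch, held 24, 22 and 15 counts in PLT-HSC, 48, 48 and 46 in PEM-HSC and 21, 24 and 24 in MUL-HSC. Taking all 160 regions, tested or not, the mean CPM was lower in PLT-HSC than in MUL-HSC in 135 and higher in 25. It was lower in PEM-HSC than in MUL-HSC in 125 and higher in 35. The lower shares stand beside 49.9% and 50.4% of all regions of the series. In the distal stretch the means were lower in 69 and 65 of 74, and at the constant-gene end in 12 of 22 in both comparisons.

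Across the 13 libraries, single regions were compared with the sum of all other regions of the locus by Pearson correlation of log2 values, CPM with a pseudocount of 1 for the single region. The most alike were the regions from 116357715 to 116358288 (r = 0.97), from 116573099 to 116573523 (r = 0.97) and from 116860887 to 116861685 (r = 0.96). The least alike was the untested region from 115629778 to 115629989 (r = -0.83). These points share the library and its scaling, and the order of groups sets most of their spread, so the correlations are a description.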

How the data were processed

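Counts per accessible region were taken as the authors deposited them, raw and whole, from Omni-ATAC-seq libraries made with a Nextera kit, per the labels' protocols. The submitters' processing notes name mm9 and, with no order or settings, MACS2, Bowtie2, Picard, SAMtools, Trim Galore and FastQC; how libraries were pooled for peaks, how reads were counted, and duplicate handling and transposase shift were not given in the sources used here.

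All 13 libraries entered 1 quasi-likelihood fit (R 4.3.3, edgeR 4.0.16, filterByExpr by group, TMM, robust, two-sided), adjusted by Benjamini-Hochberg over 59408 regions. The fit was also run on data simulated with the same dispersion for all regions. Such data cannot show how the test behaves on these libraries, and nothing is read from them. Sums use all regions. Positions are as in the table, whose counting base is unknown, and width is end minus start. Alternatives were DESeq2 1.42.0, other scalings and filters, fits on 2 groups, a replicate block, no robust estimation, thinning, and fewer libraries. Named regions are the 3 of highest mean CPM per section, the 5 of smallest p per comparison and direction, those at the window's ends and the 5 strongest not tested. Locus, sections and tests were chosen with earlier results of these data known. Whether replicates are separate recipients is not stated, so their spread may be technical.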

Additional observations from a re-analysis of the deposited data

Results flagged for a closer look

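In 3 of 60 groups of values 1 library stood apart from the others of its group, and chance alone marks about 1 in 20. At the region from 114662454 to 114663643, MUL-HSC replicate 2 had 102 CPM and the other MUL-HSC libraries 29.1 to 41.2 CPM. At the region from 115706962 to 115707756, MUL-HSC replicate 1 had 25.0 CPM and the others 20.1 to 20.7 CPM. At the region from 116860887 to 116861685, PEM-HSC replicate 6 had 12.5 CPM and the other PEM-HSC libraries 5.73 to 8.20 CPM.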

How the results depend on the processing

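The number of Igh regions past the threshold, 22 for PLT-HSC and 11 for PEM-HSC against MUL-HSC, was 4 and 3 with a mean of at least 20 counts, which left 23 regions to test, and 11 and 0 without the libraries under 2000000 counts, with fewer samples. Thinning to the smallest total gave 11 for PLT-HSC, with 36 regions tested. Leaving out single libraries gave 11 to 27 for PLT-HSC and 5 to 16 for PEM-HSC. With the replicate number as a block the counts were 15 and 6. The numbers are not stated to pair libraries, same-numbered libraries correlated at -0.14 to 0.10 in their deviations, and 0 of 11 libraries correlated best with a same-numbered one. PLT-HSC against PEM-HSC gave 0 regions in every fit. The log2 ratio of the whole locus was -0.73 for PLT-HSC and -0.42 for PEM-HSC without the libraries under 2000000 counts, against -0.93 and -0.62 with all, and the causes of these shifts were not tested. Counts under the other alternatives stayed within 1.5 times, all other section ratios moved by less than 1 SD between replicates, and no named region past the threshold in any fit changed direction. Of the named results 15 calls were lost for PLT-HSC over all alternatives, 8 were lost and 2 gained for PEM-HSC against MUL-HSC. The fewest regions could be tested in the proximal stretch, 2 of 20, and the parts of depth and of weak signal in this were not tested.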

Other observations

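Regions with no count at all were unevenly shared among the libraries. In PLT-HSC replicates 1, 2 and 3, 8.75%, 6.88% and 6.25% of the 160 Igh regions had no count, beside 3.18%, 4.56% and 2.50% of all regions of the series in the same libraries. PEM-HSC replicates 2 and 3 had 16.9% and 14.4% of the locus at 0, beside 11.9% and 7.54% of all regions. The 2.9 Mb above the locus also held many such regions in some libraries. There 17.3% were at 0 in PEM-HSC replicate 3, 12.9% in PEM-HSC replicate 2 and 7.19% in PEM-HSC replicate 5 (5% in the locus). PLT-HSC replicates 1 and 2 had 3.60% and 6.47% there. In PLT-HSC replicate 3 (2.16%) the share there was below that of the series. The same held for PEM-HSC replicate 4, with 1.44% there, 3.13% in the locus and 1.80% of all regions. A share above that of the series was thus found in the upper flank too in some libraries, but not in others. In the 4 MUL-HSC libraries 3.75%, 5.63%, 3.13% and 1.25% of the locus was at 0, beside 8.16%, 12.1%, 4.60% and 2.98% of all regions, and PEM-HSC replicate 6 also had a smaller share at 0 in the locus (3.75%) than overall (6.62%).

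Some weak regions of the proximal and middle stretches split the restricted libraries, and these are named after their values were seen. The region from 115156786 to 115157215 held 0 counts in PLT-HSC replicates 1 and 3 and in PEM-HSC replicates 1, 2 and 3, but 6 in PLT-HSC replicate 2 and 2, 7 and 7 in PEM-HSC replicates 4, 5 and 6, beside 4, 3, 11 and 12 in MUL-HSC. The region from 115884691 to 115884914 held 0 in PLT-HSC replicates 1 and 3 and in PEM-HSC replicates 1, 2, 3 and 5, but 3 in PLT-HSC replicate 2 and 3 and 8 in PEM-HSC replicates 4 and 6, beside 3, 4, 4 and 5 in MUL-HSC. Other weak regions went the other way. The region from 115629778 to 115629989 held 4, 4 and 3 counts in PLT-HSC, 1 to 6 in PEM-HSC and 0, 0, 1 and 1 in MUL-HSC. In CPM both restricted groups lay above MUL-HSC there without overlap. At the constant-gene end, the region from 114446040 to 114446285 held 11, 5 and 6 counts in PLT-HSC and 1, 0, 3 and 1 in MUL-HSC. PLT-HSC lay above MUL-HSC there, while PEM-HSC overlapped it. None of these regions was tested, and such low counts allow no order among the libraries.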
